A study of Arabidopsis thaliana with 9 samples.

Results

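The genes described here are 10 loci of the CLAVATA-WUSCHEL system, which sets the number of stem cells in the shoot apical meristem of Arabidopsis thaliana. They were chosen by locus identifier and not by a rule on measured values, though with earlier results of these data known. All 10 have a row among the 23338 loci of the deposited count table. Shoot apical meristems of accession Col-0, with no transgene or mutation named, had been cut out by laser. Plants kept in short days (8 h light) had then received 0 long days (LD0), 1 long day (LD1) or 3 long days (LD3) of 16 h light. The 3 time points follow the meristem from its vegetative state towards flowering. Each had libraries A, B and C. The labels describe C as a ready-to-run library and the other two as whole transcriptome shotgun libraries. The RNA had been amplified and copied with random primers. The number of plants behind a library is not stated, nor whether libraries came from separate plants, so p-values here measure a spread between libraries that may be technical.

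In this system the stem cells at the tip secrete the small peptide CLV3, which is perceived by leucine-rich repeat receptors in the cells around and below them. Signalling through these receptors restrains the homeodomain transcription factor WUS in the organizing centre, and WUS in turn maintains the stem cells and activates CLV3. The loop is known for keeping the meristem at a steady size while organs form at its flanks.

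CLV3 belongs to the CLE family, whose members share a short stretch from which the mature peptide is cut. The coding sequence of that stretch is shown because CLV3 is the ligand of the system and gave most of its reads, while the related CLE genes of shoot and vasculature with a row in the count table gave few. The 12 codons shown, codons 70 to 81 of CLV3, are those most alike in the 7 listed relatives. They were read by locus from the RefSeq annotation of TAIR10.1, 5′ to 3′ on the coding strand, and capitals mark bases identical to CLV3.
CLV3: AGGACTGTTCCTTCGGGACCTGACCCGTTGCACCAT
CLE16: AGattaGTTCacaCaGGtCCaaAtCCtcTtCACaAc
CLE17: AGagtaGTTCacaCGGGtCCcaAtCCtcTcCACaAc
CLE27: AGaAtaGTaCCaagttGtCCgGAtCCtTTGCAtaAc
CLE40: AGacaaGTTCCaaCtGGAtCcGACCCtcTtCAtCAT
CLE41: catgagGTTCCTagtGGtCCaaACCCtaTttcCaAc
CLE42: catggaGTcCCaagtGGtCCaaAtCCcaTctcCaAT
CLE44: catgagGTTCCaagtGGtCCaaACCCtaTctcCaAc

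Of the 36 bases, CLE40 shares 23 with CLV3, CLE17 and CLE27 share 20 each, CLE16 shares 19, CLE41 shares 17, CLE44 shares 16 and CLE42 shares 15. CLE27 and CLE40 have the most residues in common with CLV3, 9 of 12 each, and CLE41, CLE42 and CLE44 the fewest, 6 of 12. The expression of CLE40 and CLE44, which have no row in the count table, was not analysed here.

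The receptors CLV1, BAM1, BAM2 and BAM3 are alike in sequence, which bears on their counts because reads were assigned by sequence match. BAM1 and BAM2 share 82.6% of aligned coding bases and 87.1% of aligned residues. CLV1 shares 72.5% of bases with BAM1, 72.2% with BAM2 and 70.7% with BAM3. The longest run of coding bases that BAM1 and BAM2 share, starting within codon 872 of BAM1, is 41 bases long. It is shown because a read lying within it would match both genes without a mismatch. Reads from other stretches may also match both.
BAM1 and BAM2: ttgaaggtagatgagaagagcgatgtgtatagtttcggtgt
The longest run shared by CLV1 and BAM3 is 29 bases. The split of reads between BAM1 and BAM2 is uncertain, since the counting of reads that match several loci was not given in the sources used here.

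Libraries held between 97153 and 11145220 reads assigned to loci. More reads did not always come with more loci. LD3 C had reads on 15587 loci, and LD3 B on 17340 loci from 1298372 reads. LD1 C had reads on 9909 loci and LD1 B on 15315, from 714559 and 711363 reads. The limits below count reads only and take no account of this. Levels are given in CPM, reads per 1000000 reads on the genes tested below, after scaling between libraries. Where none were counted, 3 reads were taken as the limit. They came to between 0.337 CPM in LD3 C and 28.5 CPM in LD0 B. Both ends of 1 fragment may each have been counted in 7 of the libraries, so limits and intervals cover counting error at most. All 7 listed shoot meristem markers, among them STM, KNAT1 and UFO, had reads at each time point, with a summed level of 493 to 770.5 CPM in LD0, 677 to 835 CPM in LD1 and 476 to 843 CPM in LD3. CLV3, CLV1 and WUS are themselves on that marker list. CLV3 alone averaged 408, 377 and 261 CPM in LD0, LD1 and LD3, of mean sums of 643, 748 and 666 CPM. The sums are thus in large part CLV3 and are no separate check on it. The means of STM, KNAT1 and UFO were higher in LD1 and LD3 than in LD0, and that of KNAT2 was lower in LD3. None of these changes passed the test used below. Markers of other tissues were present too. All 4 epidermal markers had reads at each time point, and so had the 5 organ primordium markers except LFY, at 0 in LD1. The 5 mesophyll markers summed to 266 to 621 CPM in LD0, 389 to 1776 CPM in LD1 and 181 to 538 CPM in LD3, and the 5 vascular markers to 27.1 to 342, 0 to 637 and 7.80 to 15.9 CPM. Of the vascular markers, ATHB8 was at 0 in LD0 and LD3 and CESA7 in LD1. The 6 seed storage markers had reads at each time point and spread most widely, at 5433 to 13616 CPM in LD0, 4.45 to 9060 CPM in LD1 and 350 to 913 CPM in LD3. Their part in the values below was not tested.

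CLV3 (AT2G27250), the ligand, was the dominant transcript of the system. Its reads numbered 42, 29 and 929 at LD0 (A, B and C in that order, here and below), 44, 334 and 126 at LD1, and 23, 470 and 2475 at LD3. Together these were 59.0% of the reads of all 10 genes. By library CLV3 took from 43.3% of them in LD0 B (exact 95% interval 31.2 to 56.0) to 78.4% in LD0 C (75.9 to 80.7). With a mean of 349 CPM over the 9 libraries, CLV3 ranked 507 of 23338 loci, without correction for length.

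On a per-length scale CLV3 stood apart from every other member. Levels were divided by the longest annotated transcript of each gene, and CLV3 was the highest of the 10 in 9 of 9 libraries, at 445 ± 171 CPM per kb (SD, n = 9). Next came POL, a protein phosphatase that acts below the receptors, at 19.3 ± 11.9 CPM per kb. On this scale the mean level of CLV3 was 23.1 times that of POL. CLV1 followed at 18.3 ± 7.96, CRN at 10.7 ± 8.84, CLV2 at 8.73 ± 8.35 and BAM2 at 7.43 ± 4.85 CPM per kb. WUS had 2.75 ± 3.71, BAM1 2.14 ± 2.35, RPK2 1.70 ± 3.66 and BAM3 0.292 ± 0.875 CPM per kb.

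Below CLV3, no neighbours in this order were apart by more than the spread of their difference over libraries. That spread is an SD between libraries and not an error of the mean difference, and the order was not tested. POL was above CLV1 in 6 of 9 libraries, with a mean difference of 0.952 CPM per kb and an SD of 12.5. CLV1 was above CRN in 8 of 9 libraries, but the difference of 7.62 CPM per kb was smaller than its SD of 9.67. CRN was above CLV2 in 5 libraries and CLV2 above BAM2 in 5, and WUS and BAM1 were each ahead in 3. The mean of BAM2 was 2.70 times that of WUS, with BAM2 above in 7 of 9 libraries, and the mean of RPK2 was 5.85 times that of BAM3, which had 1 read in all. With coding length in place of transcript length the order of the 10 genes was the same, and CLV3 led in 9 of 9 libraries. CLV3 and POL then averaged 1198 and 27.6 CPM per kb, and without division by length 349 and 71.0 CPM. The size of the gap thus depends on the length used.

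**Figure D1:**
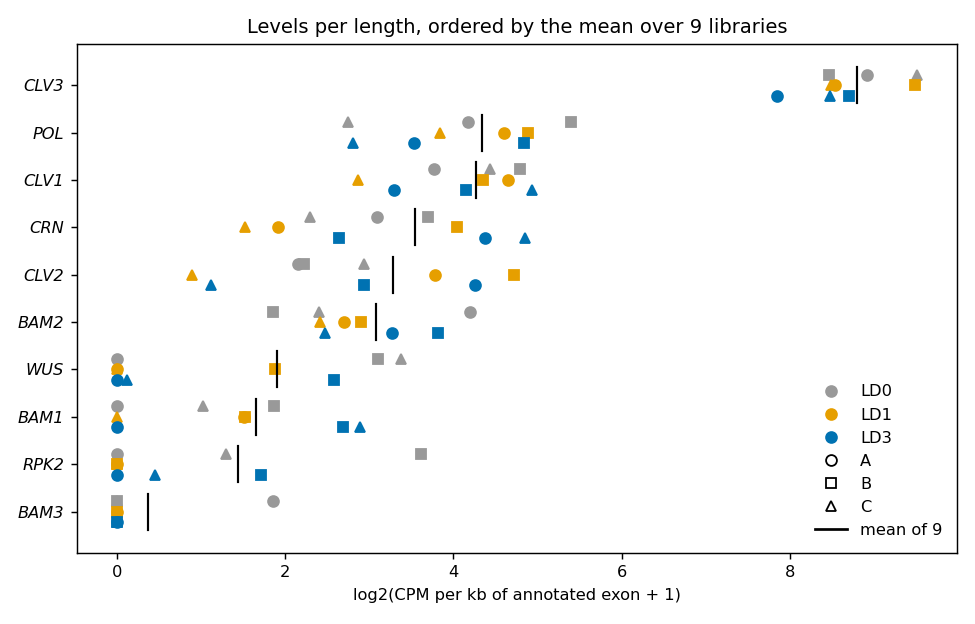
Level of each gene in the 9 libraries as log2(CPM per kb of annotated exon + 1), with genes ordered by their mean. Colours give the time point, symbols the library letter, and black lines the mean of 9 libraries. CLV3 lies above every other gene in each library, while the ranges of POL, CLV1, CRN, CLV2 and BAM2 overlap.

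The level of CLV3 did not change detectably with long days. CLV3 stood at 377, 275 and 573 CPM at LD0 A, B and C, at 289.8, 560.0 and 280.5 CPM at LD1, and at 179, 326 and 278 CPM at LD3. The time points overlapped, and the lowest value was that of LD3 A. Means were 408 ± 151, 377 ± 159 and 261 ± 74.6 CPM (SD, n = 3 each). The fitted log2 fold change was −0.09 (SE 0.58) for LD1 against LD0 and −0.63 (SE 0.57) for LD3 against LD0, with adjusted p-values of 0.986 and 0.859 by edgeR's quasi-likelihood test. As a ratio, the LD3 level was 0.647 times the LD0 level, with a 95% interval of 0.271 to 1.54. Within letters, LD3 minus LD0 was −1.06 in A, +0.24 in B and −1.04 in C on the log2 CPM scale, so B went the other way. In bulk samples, fewer cells that express a gene and less RNA per cell cannot be told apart.

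CLV3 was also the member with the smallest error. The standard error of its LD3 against LD0 change was smaller than that of 95.8% of the 9300 genes tested, where the median was 1.25. The 7 libraries with both read columns give its level from read 1 and from read 2. CLV3 was at 227 and 217 CPM of its column in LD3 C, at 416 and 434 in LD0 C and at 398 and 502 in LD1 B. The columns of LD3 C had been matched with different BLASTN versions. In LD1 A, where the columns held 9 and 35 CLV3 reads, the levels were 233 and 408. The columns differed more for CLV1 in LD3 B, at 30.6 and 81.6 CPM of its column from 12 and 74 reads.

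No gene of the system passed the test in any comparison of time points. Of the 10 genes, 6 had enough reads to be tested (CLV3, CRN, CLV1, CLV2, BAM2 and POL), and 0 of the 6 passed an adjusted p of 0.05 in any of the 3 pairwise comparisons or in a joint test over LD0, LD1 and LD3. The same fit called 0% of all 9300 genes in LD1 against LD0, 0% in LD3 against LD0, 0% in LD3 against LD1 and 0.0108% (1 gene) in the joint test, so the members' count is at the background. At an unadjusted p under 0.05 the members again numbered 0. Of all genes, that threshold took 6.37% in LD1 against LD0 (3.28% higher and 3.09% lower), 7.92% in LD3 against LD0 (2.69% higher and 5.24% lower), 4.08% in LD3 against LD1 (1.57% higher and 2.51% lower) and 5.74% in the joint test. DESeq2 called 0 members in the joint test, where it called 36 of the 9300 genes. It called 30 genes in LD1 against LD0 and 296 in LD3 against LD0, again with 0 members. The background of 0% in these comparisons thus belongs to the edgeR fit. For the 6 tested members the libraries of 2 time points overlapped in all 18 combinations of gene and comparison, where 8.74% of tested genes in LD1 against LD0, 12.7% in LD3 against LD0 and 9.16% in LD3 against LD1 did not overlap. The other 4 members overlapped too, but libraries without reads tie them at 0.

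The scaling of the libraries sets where 0 lies. The median log2 fold change of all tested genes in LD3 against LD0 was 0.09 with the TMM factors used here and −0.18 with RLE factors. Relative to that median, CLV3 stood at −0.72 and −0.73, CRN at 1.34 and 1.36, CLV2 at −0.49 and −0.45, POL at −0.46 and −0.49, CLV1 at −0.18 and −0.20, and BAM2 at 0.04 and 0.02. The order of the members was thus the same under both factors except that CLV2 and POL, close to each other, changed places.

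**Figure D2:**
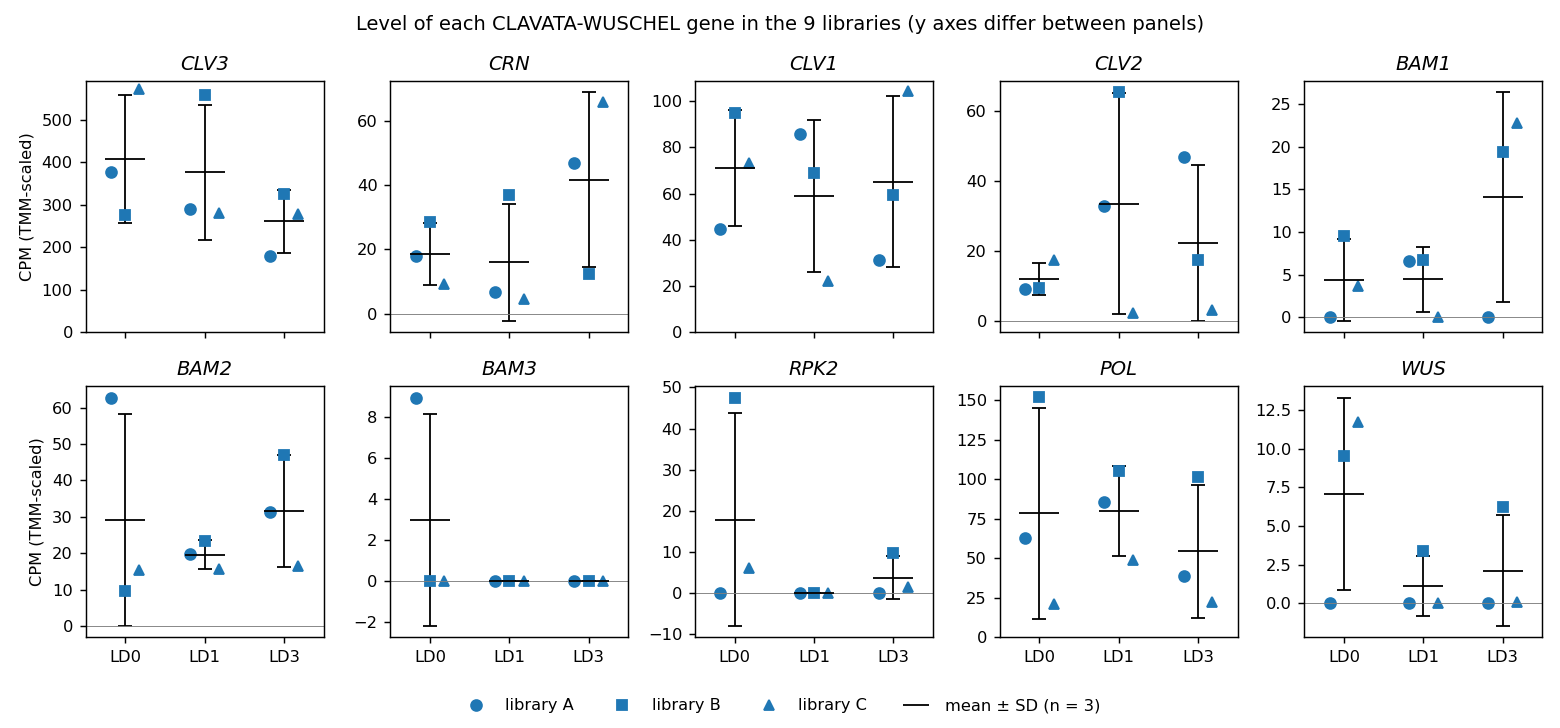
Level in CPM of each of the 10 genes in every library, by time point (LD0, LD1, LD3), with symbols for the library letters and black lines for the mean ± SD of 3 libraries. The y axes differ between panels. In every panel the time points overlap, and BAM1, BAM3, RPK2 and WUS have libraries at 0.

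Among the receptors, CLV1 (AT1G75820), the receptor kinase that binds CLV3, was read in all 9 libraries. It had 44.8, 94.98 and 73.4 CPM at LD0 A, B and C, 85.6, 68.7 and 22.3 CPM at LD1, and 31.2, 59.6 and 105 CPM at LD3. Means were 71.1 ± 25.2, 58.9 ± 32.8 and 65.1 ± 37.0 CPM, which differed by less than the spread within time points. The log2 fold change was −0.29 (SE 0.90) for LD1 against LD0 and −0.09 (SE 0.88) for LD3 against LD0, and adjusted p-values were 0.972 and 0.988. The 95% interval of the second ran from 0.246 to 3.57 times.

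CLV2 (AT1G65380), a receptor-like protein with no kinase domain, works with CRN (AT5G13290), a membrane-anchored kinase-like protein. CLV2 stood at 8.97, 9.50 and 17.3 CPM at LD0, at 32.9, 65.4 and 2.23 CPM at LD1, and at 46.8, 17.3 and 3.04 CPM at LD3. Its reads numbered 1, 1 and 28 at LD0, 5, 39 and 1 at LD1, and 6, 25 and 27 at LD3. After long days libraries A and B were above their LD0 counterparts and C was below. LD0 A and LD0 B held 1 read each, where 3 reads stood for 26.9 and 28.5 CPM. The size of the differences in A and B is therefore uncertain. For LD1 against LD0, A differed by +1.73, B by +2.62 and C by −2.39 on the log2 CPM scale, and the fitted change was +0.26 (SE 1.54, adjusted p 0.986 by edgeR). For LD3 against LD0 these differences were +2.22, +0.78 and −2.09, with a fitted change of −0.40 (SE 1.40). The letters A and B were 1 library preparation and C another, so this split runs along the preparation. Without a term for the preparation in the fit, the change was +1.40 for LD1 against LD0 and +0.67 for LD3 against LD0, and neither passed.

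CRN stood at 17.9, 28.5 and 9.25 CPM at LD0, at 6.59, 36.9 and 4.45 CPM at LD1, and at 46.8, 12.5 and 66.0 CPM at LD3. LD3 A and C were above all LD0 libraries and LD3 B was below LD0 A and B. This order turns on few reads, 2 in LD0 A, 3 in LD0 B and 6 in LD3 A. The change for LD3 against LD0 was +1.43 (SE 1.30, adjusted p 0.857 by edgeR). Its 95% interval, from 0.375 to 19.4 times, includes both a fall and a strong rise. LD3 C carried 587 of the 656 CRN reads, and without that library the change was +0.08.

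BAM1, BAM2 and BAM3 are close relatives of CLV1 that can act in its place. BAM2 (AT3G49670) had 62.8, 9.50 and 15.4 CPM at LD0, 19.8, 23.5 and 15.6 CPM at LD1, and 31.2, 47.1 and 16.4 CPM at LD3. Its fitted changes were −0.46 (SE 1.06) for LD1 against LD0 and +0.13 (SE 1.04) for LD3 against LD0, and the sign of the second turned with RLE scaling (−0.16). The LD0 mean of 29.2 ± 29.2 CPM rested on 7 reads in LD0 A.

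BAM1 (AT5G65700) had too few reads for the test, with 0, 1 and 6 at LD0, 1, 4 and 0 at LD1, and 0, 28 and 203 at LD3. LD3 B and C stood at 19.4 and 22.8 CPM, and the highest of the 6 libraries of LD0 and LD1 was LD0 B at 9.50 CPM. A count of 3 reads stood for 23.4 CPM in LD3 A, 26.9 CPM in LD0 A, 28.5 CPM in LD0 B and 19.8 CPM in LD1 A, so these libraries, with 0 or 1 reads, do not separate a level like that of LD3 B from a lower one. The ratio of pooled reads for LD3 against LD0 came to 6.29, with a 95% counting interval of 3.01 to 15.8, and LD3 C weighs most in it. In the authors' deposited table the log2 fold change of BAM1 was 2.03 for LD3 against LD0, with an unadjusted p of 0.352. BAM3 (AT4G20270), known for its role in the phloem of roots, had 1 read, in LD0 A, over all 9 libraries.

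The mix of CLV1 and BAM reads differed between libraries, and the time points overlapped. CLV1 took 38.5%, 83.3% and 79.3% of the reads on these 4 receptors in LD0 A, B and C, 76.5%, 69.5% and 58.8% in LD1 and 50.0%, 47.3% and 72.7% in LD3. The exact 95% interval was wide in LD0 A (13.9 to 68.4, from 13 reads) and narrow in LD3 C (70.2 to 75.2, from 1280 reads). The intervals of LD3 B (39.8 to 54.8) and LD3 C, the libraries of their time point with the most reads, did not overlap.

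RPK2 (AT3G02130), a receptor kinase that transmits the CLV3 signal apart from CLV1 and CLV2, was counted 0, 5 and 10 times at LD0, not at all at LD1, and 0, 14 and 14 times at LD3. Pooled per time point, 0 reads in LD1 against 15 in LD0 put LD1 at least 3.24-fold lower by read counts alone. This takes 3 reads over the group as the limit and leaves out the spread between libraries. The levels of LD0 B (47.5 CPM) and LD0 C (6.16 CPM) set that difference, and LD0 A had 0 reads like the LD1 libraries. A count of 3 reads stood for 19.8, 5.03 and 6.68 CPM in LD1 A, B and C, so the level of LD0 C would not have been detectable in LD1 A or C. In the authors' deposited table RPK2 had an unadjusted p of 0.0376 for LD1 against LD0, the only p-value under 0.05 for the 10 genes in the authors' 3 comparisons. The log2 fold change beside it in the authors' deposited table (−33.98) was computed against a group with no reads and is not a measured size. The p-value of RPK2 was not adjusted for the 21524 loci of that comparison. The share of those loci under 0.05 was not computed, so no background stands beside it.

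**Figure D3:**
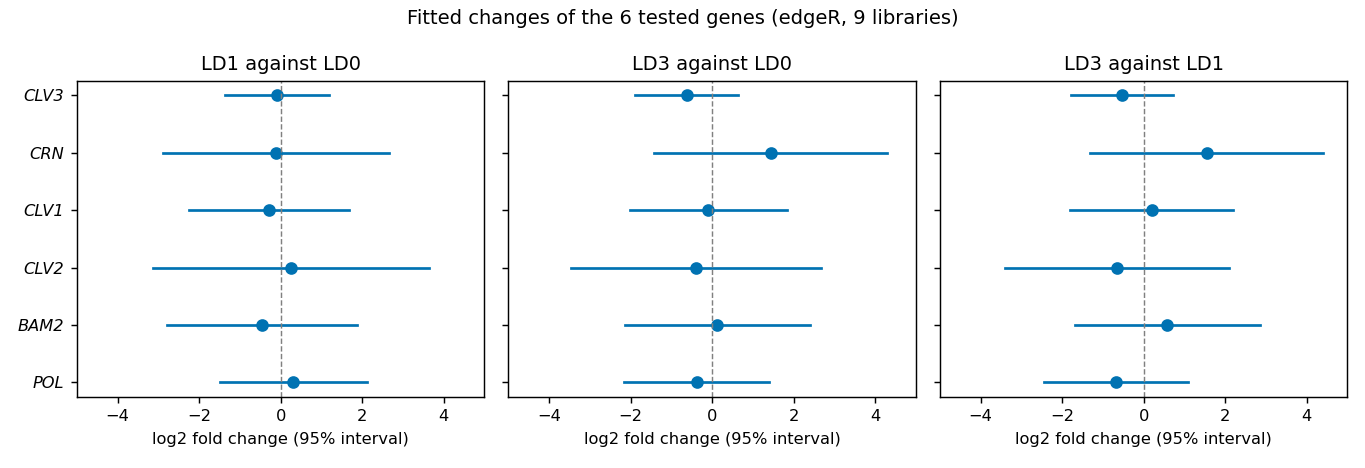
Fitted log2 fold changes (points) with 95% intervals (lines) of the 6 tested genes in LD1 against LD0, LD3 against LD0 and LD3 against LD1. Every interval includes 0, and those of CLV3 are the narrowest.

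Below the receptors, POL (AT2G46920), a phosphatase that promotes stem cell fate and is opposed by CLV signalling, stood at 62.8, 152 and 20.96 CPM at LD0, at 85.6, 106 and 49.0 CPM at LD1, and at 39.0, 102 and 22.1 CPM at LD3. Library B was the highest and library C the lowest at each time point. The fitted changes were +0.31 (SE 0.82) for LD1 against LD0, −0.37 (SE 0.81) for LD3 against LD0 and −0.68 (SE 0.80) for LD3 against LD1, with adjusted p-values of 0.967, 0.959 and 0.973 by edgeR. The SD between letters within each time point, 66.9 CPM at LD0, 28.7 CPM at LD1, and 42.0 CPM at LD3, was larger than any difference between the means of time points.

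WUS (AT2G17950), the transcription factor at the end of the pathway, was near the limit of detection. Its reads numbered 0, 1 and 19 at LD0, 0, 2 and 0 at LD1, and 0, 9 and 1 at LD3, so the A libraries had 0 throughout. The levels were 9.50 and 11.7 CPM in LD0 B and C, 3.35 CPM in LD1 B and 6.23 and 0.112 CPM in LD3 B and C. The pooled ratio for LD3 against LD0 was 0.0954 (95% counting interval 0.0399 to 0.213), and 11145220 of the LD3 reads came from LD3 C, with 1 WUS read. Among B libraries alone, LD3 had 9 reads in 1298372 and LD0 had 1 in 97153, so the low pooled ratio rests on the C libraries. WUS was not tested for want of reads. In the authors' deposited table it had a log2 fold change of −1.60 and an unadjusted p of 0.385 for LD3 against LD0. CLV3, which WUS is known to activate, was the most abundant member in the same libraries. Why WUS had few reads was not tested.

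CLV3 and POL, the members with the highest mean CPM, had a Pearson r of −0.01 and a Spearman rho of −0.03 over the 9 libraries, given as a description. Between CLV3 and the other tested members Pearson r lay between −0.20 (CRN) and 0.31 (CLV1). Among the 9299 other tested genes, those most like CLV3 over the 9 libraries were AT3G54740 (r = 0.97), AT2G14910 (r = 0.95) and AT5G47540 (r = 0.92), and those most like POL were AT3G48410 (r = 0.94), AT3G56370 (r = 0.93) and AT3G17750 (r = 0.91). These values share library, depth and preparation. The genes most like CLV3 and POL were picked as the highest of 9299 correlations over 9 libraries. Of them, AT5G47540 had reads in 5 libraries only.

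Other genes of the pathway were taken from 7 lists with 63 genes, of which 53 have a row and 27 were tested. None passed in any comparison by edgeR. In LD1 against LD0, 11 had positive and 16 negative changes, with a median of −0.03 beside −0.06 over all tested genes. In LD3 against LD0, 15 were positive and 12 negative, with a median of 0.17 beside 0.09 over all genes. In LD3 against LD1, 14 were positive and 13 negative, with a median of 0.24 beside 0.08. The 6 tested CLAVATA-WUSCHEL genes themselves had medians of −0.10, −0.23 and −0.17 in the 3 comparisons.

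Of the other CLE ligands, 0 were tested. CLE42 had 112 reads, 101 of them in LD3 C, CLE16 had 21 with 16 in LD1 A, CLE17 had 29, CLE27 had 17 and CLE41 had 6. Per length the highest of them, CLE16, averaged 9.11 ± 26.5 CPM per kb over 9 libraries, against the 445 CPM per kb of CLV3. Each of them was absent from 4 or more libraries.

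Of the 12 listed coreceptors and related receptor kinases, 6 were tested. CIK1, CIK2 and CIK3, with 127, 164 and 33 reads in all, were not tested. Nor were PXY, PXL1 and PXL2, with 1, 18 and 12 reads. The 3 tested ones with the highest mean CPM were ERL2, ERECTA and RPK1. ERECTA, which limits stem cell number alongside the CLV pathway, averaged 283 ± 66.7 CPM at LD0, 285 ± 80.0 CPM at LD1, and 276 ± 90.8 CPM at LD3. Its fitted changes were −0.06 (SE 0.56) for LD1 against LD0 and −0.12 (SE 0.56) for LD3 against LD0. Its relative ERL2 averaged 293 ± 158, 293 ± 39.6 and 348 ± 161 CPM. RPK1, a relative of RPK2, averaged 45.4 ± 43.0, 648 ± 1047 and 62.7 ± 20.5 CPM, and the LD1 mean rested on LD1 C at 1856 CPM beside 46.1 and 40.2 CPM in LD1 A and B. PLL1, the relative of POL, had 16 reads in all and was not tested. The protein kinase MPK6 averaged 120.0 ± 25.4, 72.05 ± 33.5 and 79.2 ± 63.1 CPM, and KAPP, a phosphatase that binds CLV1, 13.03 ± 15.1, 13.97 ± 24.2 and 12.8 ± 10.6 CPM. Neither passed.

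In the WOX family to which WUS belongs, 2 of 14 listed genes were tested. WOX13 reads numbered 0, 0 and 6 at LD0, 3, 5 and 5 at LD1, and 2, 14 and 724 at LD3. All LD1 and LD3 libraries were above the LD0 libraries in CPM, at 8.38 to 19.8 CPM in LD1 and 9.70 to 81.4 CPM in LD3 beside 3.70 CPM in LD0 C, but the limits in LD0 A and B were 26.9 and 28.5 CPM. The log2 fold change for LD3 against LD0 was +4.17 (SE 1.53) with an unadjusted p of 0.0188 and an adjusted p of 0.56 by edgeR, so it did not pass. WOX9 averaged 11.95 ± 20.7, 6.63 ± 6.59 and 5.79 ± 8.25 CPM.

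Among genes that regulate or assist WUS and CLV3, 0 of 15 tested passed. STM, the homeobox gene that keeps meristem cells undifferentiated, averaged 83.4 ± 92.4, 175 ± 123 and 129 ± 59.9 CPM, with a change of +0.69 (SE 0.79) for LD3 against LD0. AGO10, an Argonaute protein that keeps the meristem from differentiating, averaged 102 ± 18.9, 75.2 ± 43.9 and 72.4 ± 33.3 CPM, and ULT1, which limits WUS in flowers, 70.0 ± 54.6, 67.1 ± 17.7 and 87.6 ± 47.5 CPM. HAM1, a partner protein of WUS, averaged 90.7 ± 53.1, 112 ± 139 and 149 ± 163 CPM. C was the highest library of HAM1 in LD1 (272 CPM beside 13.2 and 51.97 CPM in A and B) and in LD3 (338 CPM beside 54.6 and 56.1 CPM). TPL, a corepressor that WUS recruits, averaged 57.9 ± 30.7, 235 ± 371 and 60.7 ± 65.0 CPM and its relative TPR3 18.7 ± 18.5, 220.0 ± 355 and 54.2 ± 75.8 CPM. The LD1 means of both rested on LD1 C, with TPL at 663 CPM beside 26.3 and 16.8 CPM in LD1 A and B, and TPR3 at 629.9 CPM beside 0 and 30.2 CPM. DRN, an AP2-type transcription factor upstream of CLV3, was picked after its values were seen. It stood at 17.9, 47.5 and 54.2 CPM at LD0, at 6.59, 1.68 and 0 CPM at LD1, and at 7.80, 19.4 and 10.6 CPM at LD3. All LD1 libraries were below all LD0 libraries, with limits of up to 19.8 CPM in LD1 A. Its change for LD1 against LD0 was −4.41 (SE 1.503), with an unadjusted p of 0.0131 and an adjusted p of 0.772 by edgeR, and it did not pass.

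ARR7 and ARR6, cytokinin response regulators of the class that WUS represses, were the 2 tested of 7 listed WUS targets. ARR7 averaged 106 ± 123 CPM in LD0, 391 ± 602 in LD1 and 283 ± 324 CPM in LD3, with a change of +1.44 (SE 0.78, adjusted p 0.698 by edgeR) for LD3 against LD0. In LD1, ARR7 was at 1086 CPM in C beside 26.3 and 60.4 CPM in A and B, and in LD3 at 657 CPM in C beside 109 and 82.4 CPM. ARR6 averaged 37.2 ± 48.8, 35.9 ± 42.2 and 16.0 ± 4.41 CPM. For both genes the SD over the LD0 libraries was larger than the mean.

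**Figure D4:**
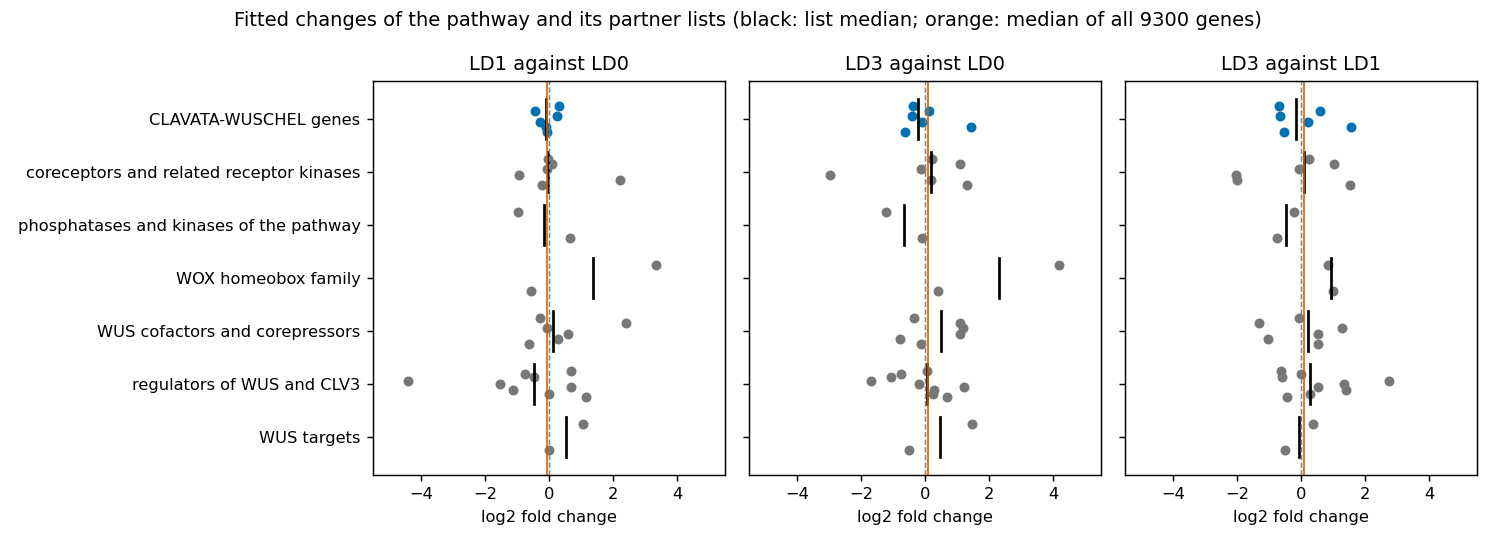
Fitted log2 fold changes of each tested gene (points) in the CLAVATA-WUSCHEL set and the 6 partner lists with a tested gene, for LD1 against LD0, LD3 against LD0 and LD3 against LD1. Black lines are list medians and the orange line is the median of all 9300 tested genes; the WOX, phosphatase and WUS target lists have 2 tested genes each.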

How the data were processed

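The authors deposited read counts per locus in 16 columns for 9 libraries. BLASTN matched the reads, in version 2.2.21 for 7 columns and 2.2.13 for 9, per the file headers. Genome build, match filters and strand use were not given in the sources used here. Coordinates are therefore left out, and genes that overlap or have close copies may share reads. Read columns were summed per library and missing cells read as 0. The deposited comparison tables, for which the submitters' processing notes name edgeR, give each locus a log2 fold change and an unadjusted p-value.

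The test on counts was that of edgeR 4.0.16 under R 4.3.3 (quasi-likelihood F test, TMM factors, filterByExpr with a minimum count of 10), with time point and library preparation as terms over all 9 libraries. The filter kept 9300 genes, the model left 5 residual degrees of freedom, and p-values were adjusted over all tested genes by Benjamini-Hochberg. SEs come from the fold change and the F statistic. CPM use TMM-scaled library sizes counted over the 9300 tested genes, which held 94.5% of the reads. The log2 CPM use a prior count of 2. Pooled ratios use unscaled totals. Exact intervals are Clopper-Pearson. Alternatives were RLE factors, no filter, DESeq2 1.42.0, no preparation term, a replicate block, A and B alone, 1 read column per library, and leaving out each library.

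Transcript lengths and sequences were taken by locus from RefSeq TAIR10.1, and receptors were aligned globally with Biopython 1.88. Of 23338 loci, 23073 matched an identifier in RefSeq. Genes named are the 10 members; the 3 tested genes of highest mean CPM in each partner list, with any that passed; and the 3 genes most correlated with each of the 2 members of highest mean CPM. CLE genes and others outside this rule were named after their values were seen. Members and lists were chosen with earlier results of these data known.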

Additional observations from a re-analysis of the deposited data

How the results depend on the processing

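Of 182 values of the 12 fold changes against LD0 (6 genes, 2 comparisons) under 16 alternative settings, 152 kept their sign, 30 turned and 0 passed; the lowest adjusted p was 0.637, and 0 members were called in the joint test under each setting. CLV3 in LD3 against LD0 was negative under all 16 (−0.91 to −0.24) and CRN in LD3 against LD0 positive under the 14 in which it was tested (0.08, without LD3 C, to 2.13). Signs turned for BAM2 in LD3 against LD0 with RLE factors (−0.16) and DESeq2 (−0.14), for CLV2 in LD3 against LD0 with no preparation term (0.67), for CLV3 (0.17) and POL (−0.37) in LD1 against LD0 among A and B alone, and for CLV1 in LD1 against LD0 with 1 read column (0.23). With a library left out, LD1 against LD0 ran from −0.79 to 0.38 for BAM2, −0.60 to 0.32 for CLV1, −0.64 to 2.27 for CLV2, −0.55 to 0.25 for CLV3, −1.71 to 0.46 for CRN and −0.070 to 0.93 for POL, and LD3 against LD0 from −0.25 to 0.97 for BAM2, −0.92 to 0.34 for CLV1, −1.25 to 1.88 for CLV2 and −0.85 to 0.24 for POL. Counts over all genes (LD1 against LD0, LD3 against LD0, LD3 against LD1, joint) were 107, 367, 186 and 433 with no filter and 30, 296, 6 and 36 by DESeq2. The joint count was 2 with RLE factors, 0 among A and B alone, 0 with 1 read column and 0 to 2 with a library left out, where LD3 against LD0 gave 0 to 1. The cause was not tested. With the letters as a replicate block, LD3 against LD0 and the joint test called 2 genes each and 0 members. Deviations of same-letter libraries correlated at over 0.1 in 8 of 9 pairs (lowest 0.073), and each library correlated best with its own letter in 18 of 18 cases. For C the letter and the labelled preparation cannot be told apart. For A and B this is a hint from the data and not from the design. In the 4 shallowest libraries 3 reads stood for 19.8 to 28.5 CPM, so lower levels were not detectable there. In LD3 C 3 reads stood for 0.337 CPM, a limit by read number alone. LD3 C had reads on fewer loci than LD3 B, 15587 against 17340.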
